A study of Rattus norvegicus with 26 samples.

Results

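The 8 genes described here, Ttr, Hrg, Rup2, Slc38a4, Isl2, Tssk3, Psd2 and Vgf, were chosen by the size of their rise in rat aorta, in array signal after low-dose SXC against saline. They are 8 of the 12240 named genes whose probe was tested, and each is read by 1 probe of the 23744 tested. The choice used the arrays of the low-dose SXC and saline groups, so the difference between these groups is given as a description with no test. Ranked by that difference, the 8 genes held places 2 to 4 and 6 to 10. Hrg, the last inside, stood 4.30 higher on the log2 scale, and Dkk1, the first outside, 4.29, followed by Mug1 with 4.25 and Ptgdr2 with 4.19. Dlx1 (6.39) and Hoxc12 (4.70), in places 1 and 5, are not among the 8. Dlx1, Dkk1, Slc38a4 and Vgf were well above background on 0 of the 8 saline arrays and Hoxc12 on 1, so their differences and places rest on saline signal near the detection limit.

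All rats were male spontaneously hypertensive rats (SHR), a strain whose blood pressure rises without treatment, and all were dosed by mouth for 4 weeks. The groups were SXC (Songling Xuemaikang, a Chinese herbal capsule) at the low dose of 236.25 mg/kg with 6 arrays, SXC at the high dose of 708.75 mg/kg with 6 arrays, valsartan, an angiotensin receptor blocker, at 21.6 mg/kg with 6 arrays, and saline at 7.5 mL/kg with 8 arrays. The series text names 8 valsartan rats, of which 6 have an array here. Per the labels' protocols the thoracic aortas were collected on day 28 and extracted separately, and the RNA went on 1-colour arrays. Whether each saline array comes from its own rat was not tested, as set out below. Every group holds the SHR background and no group of another strain is used here.

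The genes have distinct known roles. Ttr encodes transthyretin, a carrier of thyroid hormone and retinol-binding protein made by liver and choroid plexus. Hrg encodes histidine-rich glycoprotein, a plasma protein of liver that binds heparin and plasminogen, Rup2 encodes a small secreted rat urinary protein of the Ly6 and uPAR domain family, and Slc38a4 encodes a sodium-coupled transporter of neutral amino acids that is abundant in liver. Isl2 is a LIM homeobox transcription factor of motor and sensory neurons. Tssk3 is a testis-specific serine kinase of spermatids, Psd2 an exchange factor for the small GTPase ARF6, and Vgf the precursor of several neuropeptides stored in dense-core granules. The aorta itself is mainly smooth muscle, lined by endothelium and wrapped in fat and nerve, and liver plasma proteins are not among its typical products.

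Promoters are shown for the closest pair among the genes typical of liver, for the pair whose levels ran closest of all, and for Vgf, because these genes moved together in the arrays or share a motif. A RefSeq promoter of the GRCr8 build was matched for 7 of the 8 genes. The 250 bases before each gene start lie at chr18:12218508-12218757, plus strand (Ttr), chr8:43551457-43551706, minus strand (Rup2), chr8:64819629-64819878, plus strand (Isl2), chr5:147113594-147113843, minus strand (Tssk3) and chr12:25277021-25277270, minus strand (Vgf). Each sequence runs 5′ to 3′ on the gene's strand and capitals mark every match, on either strand, to the TATA box letters TATAAA, the HNF1 core letters GTTAAT or the full cyclic AMP response element (CRE) letters TGACGTCA.
Ttr: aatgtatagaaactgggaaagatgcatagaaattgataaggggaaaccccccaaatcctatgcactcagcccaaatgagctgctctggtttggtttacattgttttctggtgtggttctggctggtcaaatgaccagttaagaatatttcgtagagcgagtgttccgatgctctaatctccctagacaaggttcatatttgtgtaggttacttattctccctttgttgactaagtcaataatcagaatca
Rup2: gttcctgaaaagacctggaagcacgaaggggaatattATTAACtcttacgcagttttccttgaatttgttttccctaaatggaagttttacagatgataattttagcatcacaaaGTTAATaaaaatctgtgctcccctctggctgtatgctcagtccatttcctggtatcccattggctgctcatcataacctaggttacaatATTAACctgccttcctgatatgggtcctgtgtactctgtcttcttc
Isl2: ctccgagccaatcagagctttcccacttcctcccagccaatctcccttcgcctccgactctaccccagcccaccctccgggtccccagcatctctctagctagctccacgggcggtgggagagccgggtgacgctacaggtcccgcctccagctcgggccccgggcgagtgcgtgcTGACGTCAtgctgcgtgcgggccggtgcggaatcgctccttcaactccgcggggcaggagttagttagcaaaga
Tssk3: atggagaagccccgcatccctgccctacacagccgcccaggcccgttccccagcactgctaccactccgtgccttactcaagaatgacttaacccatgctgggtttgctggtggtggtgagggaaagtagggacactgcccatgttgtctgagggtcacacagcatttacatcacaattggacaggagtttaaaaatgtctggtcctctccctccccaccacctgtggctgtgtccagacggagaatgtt
Vgf: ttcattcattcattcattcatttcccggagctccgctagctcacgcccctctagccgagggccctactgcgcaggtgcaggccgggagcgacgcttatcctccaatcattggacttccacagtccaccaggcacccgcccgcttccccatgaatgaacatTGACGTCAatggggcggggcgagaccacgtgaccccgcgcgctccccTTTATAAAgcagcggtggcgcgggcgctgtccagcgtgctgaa
The Rup2 window held 3 matches to the HNF1 core, at bases -213 to -208, -135 to -130 and -46 to -41 from the gene start, and 6.45% of the 33469 promoters searched held at least 1. Ttr, whose levels ran closest to those of Rup2, held none of the letters searched. Isl2 and Vgf each held the full CRE, at -74 to -67 and -90 to -83, against 1.59% of all promoters, and Tssk3, whose levels ran closest to those of Isl2, did not. Vgf also held TATAAA on both strands, at -43 to -38 and -41 to -36, matches that overlap each other, and 12.9% of all promoters held these letters. No further match was found in the 7 windows, including Slc38a4 and Psd2, to the FOXA letters TGTTTAC (3.21% of promoters) or to the C/EBP letters TTGCNNAA (9.22%). A match is a run of letters and not a shown binding site. Only these exact letters in the 250 bases were searched, so a missing match does not show that a promoter lacks such a site.

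Several features of the arrays bear on what follows. Smooth muscle markers were well above background on every array for all 8 genes of the list, with mean levels between 2.83 and 3.65 in the treated groups and between 2.30 and 4.07 in the saline group. The scanner's detector gain was lower, 323 to 325 V, for all 6 valsartan and 4 of the 6 high-dose arrays, and higher, 353 to 354 V, for the others. At the lower gain 28.7% to 68.6% of probes were well above background per array, and at the higher gain 67.3% to 79.3%. The part of the gain in this was not tested. All saline arrays were scanned on 1 day, 82 days later than any treated array and sharing 0 days with them. Against saline, scan day and treatment therefore cannot be told apart. Saline arrays 1 and 5, 2 and 6, and 3 and 7, on 2 slides, deviated together across probes (r of 0.71, 0.66 and 0.87), and whether each comes from its own rat was not tested. Part of the changes and list counts against saline are therefore also given with the saline group as the 3 averages of these pairs. This alternative was added after seeing the data and leaves out saline arrays 4 and 8. Where no such value is printed, the change or count need not hold under it. Markers of other cells also moved. In low-dose SXC against saline 7 of 7 red cell genes, 7 of 8 macrophage genes, 7 of 9 endothelial genes and 6 of 7 white fat genes fell (adjusted p from limma under 0.05), and their part in the results below was not tested. These counts were 7, 7, 6 and 5 with saline as 3 averages. Over all 12240 genes 24.0% rose and 20.0% fell with low-dose SXC, 34.2% and 23.5% with high-dose SXC, and 32.9% and 26.2% with valsartan, and these shares are the background of every list count against saline below. Taking saline as 3 averages gave 15.8% and 11.9%, 25.3% and 16.7%, and 23.6% and 19.7%. List counts did not require a gene to clear background in both groups, and at the lower gain the detection limit was higher. With valsartan, for example, Kng2, Chgb and Snap25 were called as risen though well above background on 0 of 6 valsartan arrays. Chga and Cyth4 were called so at 0 of 6 valsartan and 0 of 8 saline arrays. Such calls are not measured rises, and the counts may hold others. In whole aorta, fewer cells of a type and less RNA per cell cannot be told apart.

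Levels are log2 of the scanner's processed signal minus the array's 75th percentile, so 0 is the signal that 75% of the spots lie below. Against saline, the signal of every treated array lay above that of every saline array for 7 of the 8 genes, with Rup2 on high-dose array 1 the exception. For Vgf with valsartan this is no measured rise, since 0 of the 6 valsartan and 0 of the 8 saline arrays were well above background and the detection limit differed between them. With low-dose SXC all 8 genes were higher without overlap, where 15.7% of all probes were. This is the contrast that chose them. With high-dose SXC 7 of 8 were (18.9% of all probes) and with valsartan 7 of the 7 that were measured (17.9%), in both cases against the saline arrays that also entered the choice. Measured means well above background on at least 1 array of either group, and the shares over all probes left no probe out for this. Vgf was so on 2 of 6 high-dose and Slc38a4 on 3 of 6 valsartan arrays, both on 0 of 8 saline arrays. On their other treated arrays the lack of overlap is not measured. The median change set a gene undetected in saline against the faintest level that cleared background on each saline array, and left out Vgf for valsartan. It was 4.47 with low-dose SXC, 5.13 with high-dose SXC and 5.12 with valsartan on the log2 scale. Over all probes it was 0.08, 0.22 and 0.18. For genes undetected in saline these changes are no strict lower bounds. With high-dose SXC (Slc38a4 and Vgf) and with valsartan (Slc38a4) some treated arrays did not measure the gene either.

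**Figure D1:**
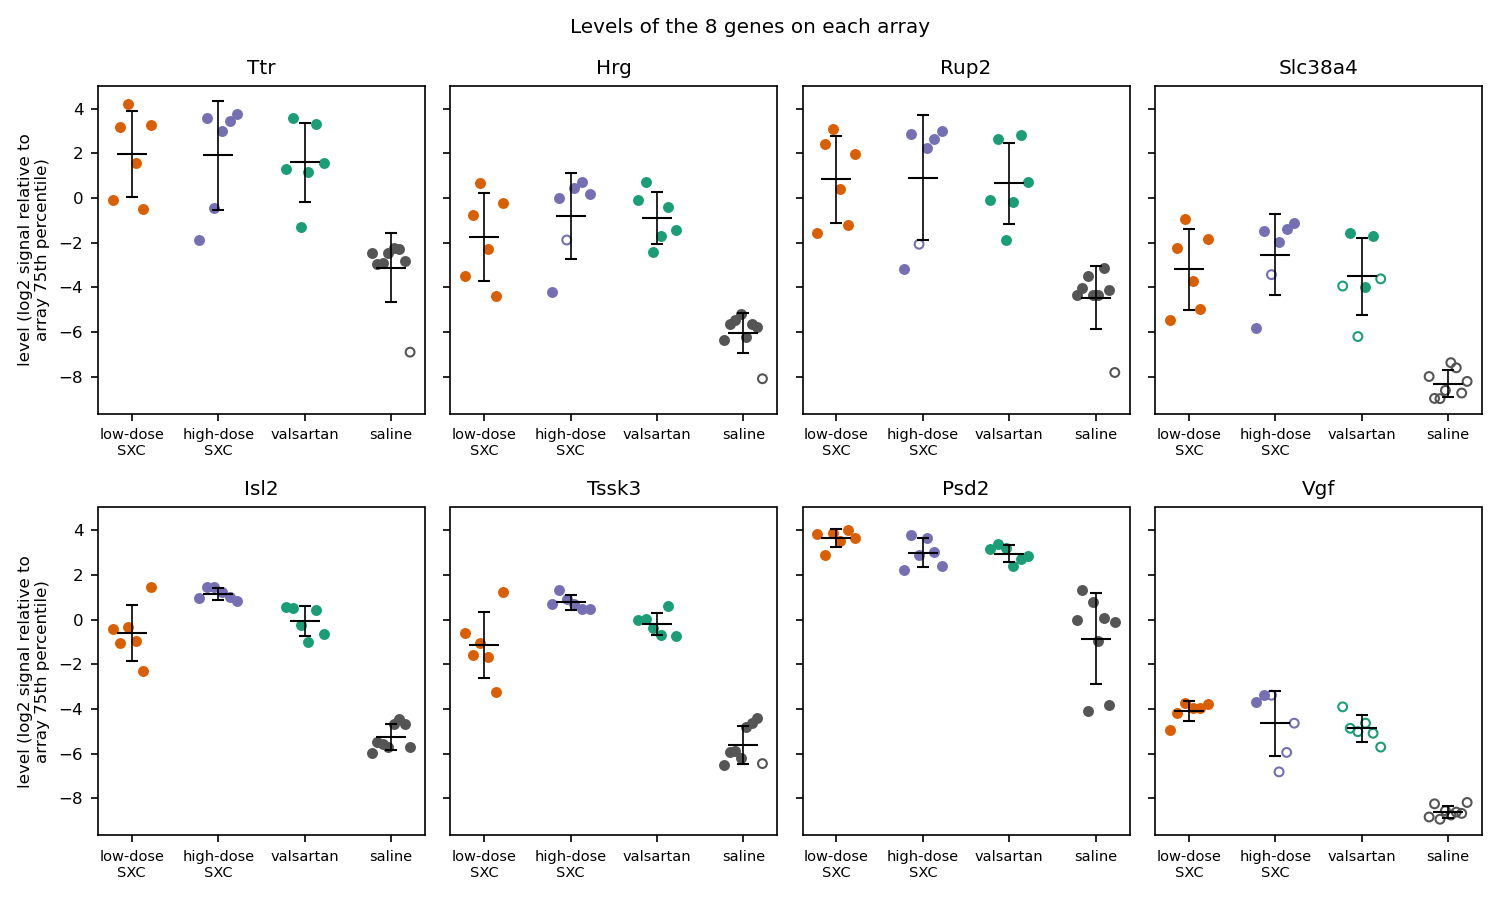
Level of each gene (y axis, log2 signal relative to the array's 75th percentile) on each array, by group, with the mean and SD in black. Filled points are arrays where the probe was well above background and open points those where it was not. The saline arrays lie below the treated arrays in every panel except for Rup2, where high-dose array 1 reaches into the saline range. For Vgf all valsartan and saline points are open.

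Ttr had a lowest, median and highest level of -0.47, 2.39 and 4.22 with low-dose SXC, -1.90, 3.22 and 3.75 with high-dose SXC, and -1.31, 1.41 and 3.59 with valsartan, against -6.90, -2.62 and -2.22 with saline. The treated arrays thus spread over several log2 units, while 7 of the 8 saline arrays lay close together and saline array 8 fell far below them, where the probe was not above background. The mean change against saline was 5.06 with low-dose SXC, 5.02 with high-dose SXC and 4.71 with valsartan, with a standard error (SE) of 0.95 each, or 33.5-fold, 32.4-fold and 26.1-fold. Without saline array 8 these were 4.52, 4.48 and 4.17. The order of means was low-dose SXC, high-dose SXC, valsartan and saline, and the 3 treated means, at 1.95 ± 1.92, 1.91 ± 2.44 and 1.59 ± 1.76 (SD, n = 6 each), differed by less than their spread.

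Rup2 ran almost in step with Ttr. Its lowest, median and highest levels were -1.56, 1.18 and 3.10 with low-dose SXC, -3.18, 2.44 and 3.01 with high-dose SXC, and -1.90, 0.30 and 2.81 with valsartan, against -7.81, -4.24 and -3.15 with saline. High-dose array 1 lay just below the highest saline array. The change against saline was 5.31, 5.38 and 5.12 for the 3 treatments in the same order, each with an SE of 1.00, and 4.83, 4.90 and 4.64 without saline array 8. The treated means of 0.85 ± 1.95, 0.92 ± 2.78 and 0.66 ± 1.82 (SD, n = 6 each) again differed by less than the spread within each group.

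Hrg reached -4.37, -1.51 and 0.69 (lowest, median, highest) with low-dose SXC, -4.22, 0.08 and 0.70 with high-dose SXC, and -2.42, -0.90 and 0.71 with valsartan, against -8.09, -5.69 and -5.17 with saline. No treated array reached the saline range, although the lowest treated arrays came within about 1 log2 unit of it. The change against saline was 4.30, 5.24 and 5.15 (SE 0.76 each) with low-dose SXC, high-dose SXC and valsartan. High-dose SXC had the highest mean, then valsartan and low-dose SXC, at -0.80 ± 1.91, -0.89 ± 1.16 and -1.73 ± 1.97 (SD, n = 6 each), and these neighbours did not differ beyond their spread.

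Slc38a4 was well above background on 0 of the 8 saline arrays, so the size of its rise was not measured. Its lowest, median and highest levels were -5.45, -2.98 and -0.96 with low-dose SXC, -5.80, -1.73 and -1.11 with high-dose SXC, and -6.20, -3.78 and -1.55 with valsartan, against -8.98, -8.41 and -7.37 with saline. The probe was well above background on 6 of 6 low-dose, 5 of 6 high-dose and 3 of 6 valsartan arrays. With saline raised to the faintest level that cleared background, it was 9.48-fold higher with low-dose SXC than with saline. The same reckoning gave 15.1-fold with high-dose SXC, where array 3 did not measure the gene. With valsartan the arrays that measured it, 2, 4 and 5, read -1.55, -3.97 and -1.71, all above the saline signal. Each fold sets the treated mean against saline values that were raised, array by array, to at least the faintest level that still cleared background. That level is the lowest of any probe on the array. The limit of a single probe can lie above it, so neither fold is a strict lower bound. The folds belong to this scaling. After normexp the fitted log2 changes were 2.08 and 2.58, and the authors' deposited table gave 3.74 and 3.62. The measured means were -3.20 ± 1.80, -2.53 ± 1.80 and -3.50 ± 1.72 (SD, n = 6 each), against -8.31 ± 0.62 with saline (SD, n = 8).

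These 4 genes were low on the same treated arrays. Ttr, Hrg, Rup2 and Slc38a4 were lowest on low-dose arrays 1 and 5, on high-dose array 1 and on valsartan array 3, and 3 of the 4, all but Ttr, were not well above background on high-dose array 3. Among 11854 candidate genes, the gene whose level ran closest to that of Ttr over the 26 arrays was Rup2, with a root mean square difference of 0.43 log2 units after each gene was centred on its mean, then Serpinc1 (antithrombin, 0.63) and Mug1l1 (0.70). For Rup2 these were Ttr (0.43), Serpinc1 (0.75) and Mug1l1 (0.83). For Hrg they were Ttr (0.86), Cfi (complement factor I, 0.89) and Serpinc1 (0.91). For Slc38a4 they were the other 3 of these members, Hrg (0.94), Ttr (0.97) and Rup2 (1.03). These distances are a description and include the difference between the groups that chose the genes.

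The levels of these 4 genes were therefore set beside a list of 30 genes for liver plasma proteins, such as fibrinogen chains, transferrin and the kininogens, of which 28 were tested. In low-dose SXC against saline 13 of the 28 rose and 0 fell, with a median change of 1.43. With high-dose SXC 20 rose and 0 fell, with a median of 2.15, and with valsartan 17 rose and 1 fell, with a median of 1.80. Over all genes the medians were 0.06, 0.15 and 0.14. Adjusted p under 0.05 was reached by 39.6%, 56.9% and 58.3% of all probes. With saline as 3 averages 5 rose and 0 fell with low-dose SXC, 12 and 0 with high-dose SXC, and 10 and 1 with valsartan, where 23.8%, 40.9% and 41.7% of all probes were called. Mug1, a protease inhibitor of rodent plasma, rose by 4.25 (SE 1.05, adjusted p from limma 0.00205) and Serpinc1 by 3.86 (SE 0.91, adjusted p 0.00128) with low-dose SXC. Their limma adjusted p was 0.0504 and 0.0376 with saline as 3 averages.

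The mean level of the 28 genes varied among treated arrays as the 4 members did. Its lowest, median and highest values were -4.36, -2.28 and -0.41 with low-dose SXC, -4.61, -1.25 and -0.99 with high-dose SXC, and -3.80, -1.91 and -0.71 with valsartan, against -4.84, -4.00 and -3.82 with saline. Within the low-dose group the Pearson r of Ttr, Hrg, Rup2 and Slc38a4 with this mean was 0.99, 1.00, 0.97 and 0.98 over 6 arrays, and the Spearman rho was 1, 1, 0.89 and 0.94. Leaving out the 2 arrays farthest from the median left r between 0.96 and 1.00. These arrays entered the choice of the genes, so no p is given. The list itself was chosen with results of all 26 arrays known, so the relations in the other groups are no independent support either. The adjustment over 32 relations below also takes in those of the low-dose and saline groups, whose small p-values lower the adjusted p of the others. The adjusted exact p-values are therefore a description.

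In the high-dose group, which the choice did not use, r was 0.95 for Ttr, 0.92 for Rup2 and 0.99 for Slc38a4 (exact permutation p adjusted over 32 relations 0.033 each), and rho was 0.83, 0.83 and 0.77 (exact p adjusted 0.17, 0.17 and 0.25). Without arrays 1 and 3 r was 0.89, 0.88 and 0.82 over 4 arrays. The high-dose arrays span 2 gains, 3 slides and 3 scan days, of which the permutation takes no account. On array 3 Hrg, Rup2 and Slc38a4 were not well above background. As few as 5 of the 28 list genes cleared background on an array of this group. Hrg had an r of 0.97 (exact p adjusted 0.063) that rested on these arrays, since r was -0.38 without them, and its rho was 0.60 (exact p adjusted 0.39). In the valsartan group, on 1 scan day and at 1 gain, r was 0.86, 0.71, 0.90 and 0.87 for Ttr, Hrg, Rup2 and Slc38a4 (exact p adjusted 0.065, 0.25, 0.058 and 0.063). Its rho was 0.94, 0.71, 1 and 0.94 (exact p adjusted 0.076, 0.27, 0.03 and 0.076), and r without arrays 3 and 4 was 0.69, -0.09, 0.81 and 0.72. Slc38a4 was well above background on 3 of the 6 valsartan arrays, so its values there are uncertain. In the saline group r was 0.86, 0.92 and 0.93 for Ttr, Hrg and Rup2, which rested on arrays 1 and 8, since r without them was -0.42, 0.09 and 0.57. No relation is given for Slc38a4 in that group, where no array measured it. Single slides or scan days within the low-dose and high-dose groups hold at most 4 arrays, too few for a value of their own.

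For Isl2, Tssk3 and Psd2 r was 0.60, 0.55 and -0.32 in the low-dose group, 0.17, 0.05 and 0.60 in the high-dose group, and 0.55, 0.64 and 0.06 in the valsartan group. For Vgf it was 0.54 in the low-dose group, and the other groups hold too few arrays that measured it. None of these had an adjusted exact p under 0.05 in the high-dose or valsartan group, which over 6 arrays does not show that no relation exists, and the difference between these genes and the 4 above was not tested. Psd2, for example, was 3.83 and 4.00 on low-dose arrays 1 and 5, where Ttr was -0.07 and -0.47, although on high-dose array 1 it too was at its group's lowest, 2.22.

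**Figure D2:**
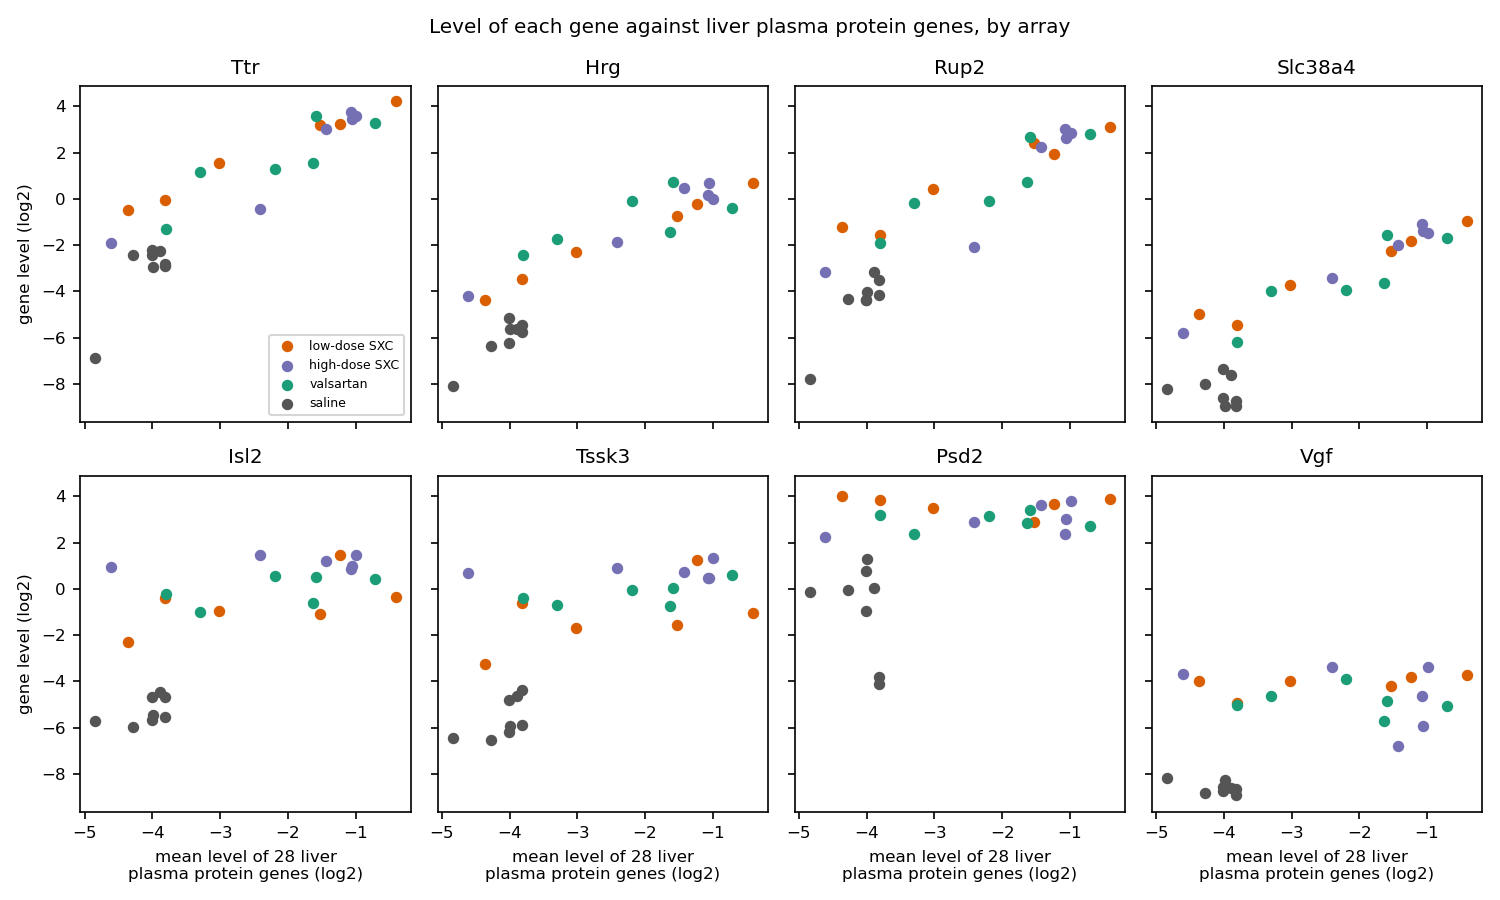
Level of each gene (y axis, log2) against the mean level of 28 liver plasma protein genes (x axis, log2), 1 point per array, coloured by group. Ttr, Hrg, Rup2 and Slc38a4 climb with the liver genes across the treated arrays.

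Hepatocyte markers moved with these 4 genes, in part. Of 10 listed genes 8 were tested, 6 of which are also on the plasma protein list, and the summed level of the 8 ranged from 2.41 to 56.2 with low-dose SXC, from 1.03 to 30.4 with high-dose SXC and from 1.29 to 25.4 with valsartan, against 1.05 to 8.85 with saline (linear signal in units of the array's 75th percentile). Of the 8, 3 rose and 1 fell with low-dose SXC, 7 rose and 1 fell with high-dose SXC, and 5 rose and 1 fell with valsartan. Against the 3 saline averages 0, 2 and 2 rose and 1 fell in each. Alb, the gene of serum albumin, had a median level of 4.13 with low-dose SXC, 3.86 with high-dose SXC and 2.49 with valsartan, against -0.04 with saline, and Fgb, a fibrinogen chain, -0.86, 0.20 and -1.0 against -3.64. Tat and Cps1, enzymes of hepatocytes, were not tested and were well above background on 1 of the 26 arrays each. Cyp2e1, a cytochrome P450 of hepatocytes also found in fat, fell by 3.97 with low-dose SXC (SE 0.85, adjusted p from limma 0.000516). The part of liver RNA in the levels of Ttr, Hrg, Rup2 and Slc38a4 was not tested. Markers of choroid plexus, the other main source of transthyretin, gave 0 of 5 genes that rose with low-dose SXC, 3 of 5 with high-dose SXC, and 2 that rose and 1 that fell with valsartan.

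The gene families around these members held genes called in both directions. Of 17 tested genes of thyroid hormone and retinol carriage, 6 rose and 3 fell with low-dose SXC (median 0.16). Slc7a8, a transporter of amino acids and thyroid hormone, fell by 3.37 (SE 0.34, adjusted p 3.03e-08) and Thrsp, a thyroid-responsive gene of fat and liver, by 3.00 (SE 0.69, adjusted p 0.00101). With high-dose SXC 6 rose and 3 fell, and with valsartan 2 rose and 7 fell. Against the 3 saline averages these counts were 1 and 2, 3 and 2, and 1 and 7. Of 14 genes of the type 3 cystatins and fibrinolysis, around Hrg, 4 rose and 2 fell with low-dose SXC, 7 and 2 with high-dose SXC and 7 and 2 with valsartan. Kng2 and Kng1, the kininogens, rose by 2.36 (SE 0.61, adjusted p 0.00295) and 2.23 (SE 0.63, adjusted p 0.00598) with low-dose SXC. Against the 3 saline averages 2 rose and 1 fell with low-dose SXC, 6 and 1 with high-dose SXC, and 3 and 2 with valsartan, and the adjusted p of Kng2 and Kng1 was 0.0499 and 0.0831 with limma.

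Of 13 Ly6 and uPAR domain genes, the family of Rup2, 2 rose and 3 fell with low-dose SXC, 4 rose and 2 fell with high-dose SXC, and 3 rose and 3 fell with valsartan, shares near those of all genes. The falls included Gpihbp1, the endothelial anchor of lipoprotein lipase, by 2.14 (SE 0.60, adjusted p 0.00581) and Lypd1, a modulator of nicotinic receptors, by 1.36 (SE 0.28, adjusted p 0.000409). Of 11 SLC38 and other neutral amino acid carriers, 2 rose and 3 fell with low-dose SXC, 4 and 3 with high-dose SXC and 4 and 3 with valsartan, and Slc38a5, a glutamine transporter of the same family as Slc38a4, fell by 2.45 (SE 0.50, adjusted p 0.000344). All these p-values come from limma.

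Isl2 and Tssk3 formed a second group with its own array pattern. Isl2 had a lowest, median and highest level of -2.30, -0.69 and 1.46 with low-dose SXC, 0.85, 1.1 and 1.46 with high-dose SXC, and -1.0, 0.10 and 0.55 with valsartan, against -5.97, -5.52 and -4.45 with saline. The high-dose arrays lay within a narrow band, and the low-dose arrays spread from array 5, the lowest, to array 6, the highest. Isl2 was well above background on all 26 arrays. The change against saline was 4.67 with low-dose SXC, 6.43 with high-dose SXC and 5.21 with valsartan (SE 0.38 each), or 25.5-fold, 86.1-fold and 37.1-fold. High-dose SXC had the highest mean, then valsartan, low-dose SXC and saline.

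Tssk3 followed Isl2 array by array. It reached -3.26, -1.30 and 1.25 with low-dose SXC, 0.47, 0.71 and 1.33 with high-dose SXC, and -0.73, -0.21 and 0.59 with valsartan, against -6.53, -5.91 and -4.39 with saline (lowest, median, highest). The change against saline was 4.45, 6.37 and 5.40 (SE 0.46 each) for the treatments in that order. The root mean square difference between the centred levels of Isl2 and Tssk3 was 0.30 over the 26 arrays, the smallest between any 2 of the 8 genes. The next genes were Wnt3 (0.77), a secreted signal, and Alx1 (0.89), a homeobox factor, for Isl2, and Alx1 (0.87) and Wnt3 (0.89) for Tssk3. Isl2 and Tssk3 lie on chromosomes 8 and 5.

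**Figure D3:**
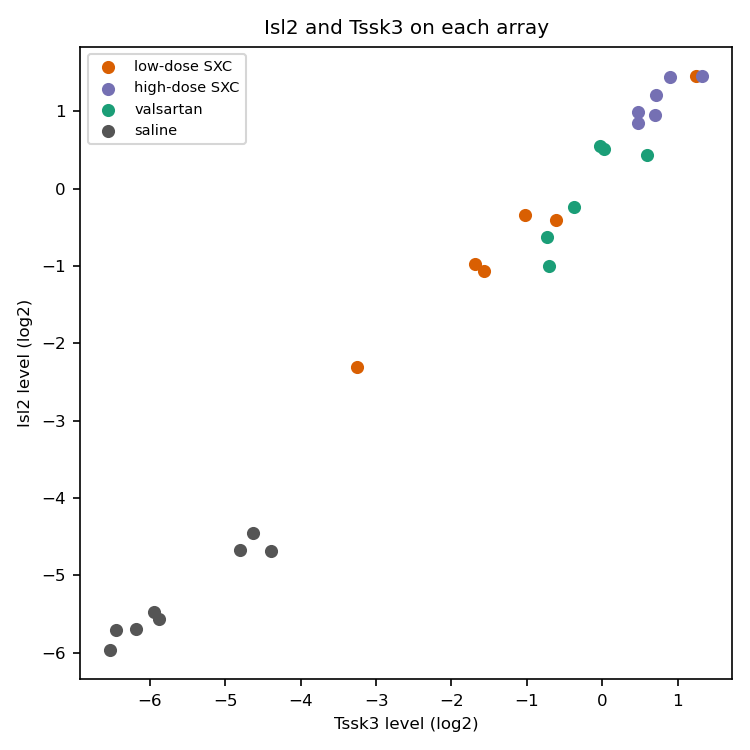
Isl2 level (y axis, log2) against Tssk3 level (x axis, log2), 1 point per array, coloured by group. The points follow 1 line, with saline at the bottom left and high-dose SXC at the top right. Low-dose array 6 lies among the high-dose arrays and low-dose array 5 lies closest to saline.

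In the saline group both genes were highest on the same 3 arrays. Arrays 5, 6 and 7, on 1 slide, gave -4.67, -4.45 and -4.68 for Isl2 and -4.81, -4.64 and -4.39 for Tssk3. Arrays 1 to 4 of the other slide lay between -5.97 and -5.47 for Isl2 and between -6.53 and -5.88 for Tssk3, and array 8, on the slide of arrays 5 to 7, gave -5.71 and -6.45, so the slides overlapped. Low-dose array 6 was alone among low-dose arrays on a slide that also held high-dose arrays 1 and 2. The part of the slide was not tested beyond a fit with the slide as a random block.

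On the lists around Isl2 and Tssk3, LIM genes were called in both directions. Called motor neuron and spermatid genes rose, except for 1 spermatid gene with valsartan, and the others stayed under the threshold. Of 11 LIM homeobox factors and binders 2 rose and 2 fell with low-dose SXC, 4 and 3 with high-dose SXC, and 2 and 4 with valsartan. Ldb2, a LIM-binding cofactor, rose by 2.27 (SE 0.28, adjusted p 5.13e-07) and Lmo2, a LIM-only cofactor of blood and endothelial cells, fell by 2.98 (SE 0.62, adjusted p 0.000398). Of 5 motor neuron genes 2 rose with high-dose SXC, 0 with valsartan and 1 with low-dose SXC, Chat, which makes acetylcholine, by 1.02 (SE 0.30, adjusted p 0.00737, and 0.0655 with saline as 3 averages). Of 9 tested spermatid genes 2 rose and 0 fell with low-dose SXC and 6 rose and 0 fell with high-dose SXC (median 1.58, against 0.15 over all genes), and 4 rose and 1 fell with valsartan. Tnp1, which packs sperm chromatin, rose by 1.17 (SE 0.33, adjusted p 0.00638) and Tsks, a substrate of testis-specific kinases, by 0.79 (SE 0.29, adjusted p 0.0326), both with limma, beside 4.45 for Tssk3. With saline as 3 averages 1 rose with low-dose SXC and 4 with high-dose SXC, and the adjusted p of Tnp1 and Tsks was 0.0482 and 0.192. Of 10 male germ cell markers only 3 were tested, and 1 of these rose with low-dose SXC.

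Psd2 had treated levels within a narrow band and saline levels spread over several log2 units. It reached 2.90, 3.75 and 4.00 with low-dose SXC, 2.22, 2.95 and 3.80 with high-dose SXC, and 2.38, 3.00 and 3.40 with valsartan, against -4.10, -0.08 and 1.31 with saline (lowest, median, highest). The probe was well above background on all 26 arrays. The change against saline was 4.49, 3.85 and 3.80 (SE 0.60 each), or 22.5-fold, 14.4-fold and 14.0-fold, with low-dose SXC, high-dose SXC and valsartan. The treated means were 3.63 ± 0.40, 2.99 ± 0.64 and 2.95 ± 0.37 (SD, n = 6 each) in the same order, and the ranges overlapped.

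Saline arrays 3 and 7 gave the lowest Psd2 levels, -4.10 and -3.81. On these arrays the 7 white fat genes had mean levels of 3.06 and 2.96, the highest of any array, and the smooth muscle genes 2.79 and 2.30, the lowest of the saline group. Saline array 8, with a white fat level of 2.41, had a Psd2 level of -0.12, near the group's median. The part of fat in the spread of Psd2 was not tested. With the saline arrays as 3 averages, the change of Psd2 was 4.89, 4.25 and 4.20 for the 3 treatments.

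The genes whose levels ran closest to that of Psd2 were Ncstn (a subunit of gamma-secretase, 0.71), Ptgdr2 (a prostaglandin D2 receptor, 0.76) and Fgd3 (an exchange factor for CDC42, 0.81). Of 7 tested ARF6 exchange factors and partners, 5 rose and 0 fell with low-dose SXC, 4 and 2 with high-dose SXC, and 4 and 2 with valsartan. The counts were 3, 4 and 4 that rose and 0 that fell with saline as 3 averages. Iqsec3 rose by 1.42 (SE 0.22, adjusted p from limma 1.06e-05). Cyth4 was well above background on 4 of 6 low-dose and 0 of 8 saline arrays, and its call (adjusted p 0.0438) was lost with saline as 3 averages (0.262).

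Vgf was faint and could be measured in few groups. It was well above background on all 6 low-dose arrays, on high-dose arrays 1 and 2, which were scanned at the higher gain, on 0 of 6 valsartan arrays and on 0 of 8 saline arrays. Its levels were -4.96, -3.97 and -3.72 (lowest, median, highest) with low-dose SXC, -6.82, -4.17 and -3.37 with high-dose SXC, and -5.71, -4.94 and -3.91 with valsartan, against -8.94, -8.65 and -8.19 with saline. With saline raised as for Slc38a4, it was 5.08-fold higher with low-dose SXC than with saline on this scaling, which is no strict lower bound. After normexp the fitted log2 change was 1.40. No fold is given for high-dose SXC, with 4 of 6 arrays not well above background, or for valsartan, where the faintest signal well above background lay between -3.99 and -1.64, above most of the levels measured for Vgf. On high-dose arrays 1 and 2 alone the level averaged -3.53.

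The genes closest to Vgf were Chga (chromogranin A, 0.76), Bmerb1 (0.87) and Syt4 (synaptotagmin 4, 0.91). Chga, like Vgf a protein of dense-core granules, was well above background on 6 of 6 low-dose and 0 of 8 saline arrays (adjusted p from limma 5e-06). Of 12 tested dense-core granule genes 7 rose and 1 fell with low-dose SXC (median 1.00), 9 rose and 2 fell with high-dose SXC (median 1.36), and 6 rose and 2 fell with valsartan (median 1.06). With the 3 saline averages these counts were 5 and 1, 8 and 1, and 5 and 2. The rises with valsartan in the main fit included Chga and Chgb, both well above background on 0 of 6 valsartan arrays. Npy, neuropeptide Y of sympathetic nerves, fell by 3.02 with low-dose SXC (SE 0.63, adjusted p 0.00043). Among 6 tested neuron markers 3 rose with high-dose SXC, 1 with valsartan and 2 with low-dose SXC. The 1 with valsartan, Snap25, was well above background on 0 of 6 valsartan and 5 of 8 saline arrays, so its rise is not measured. The 2 with low-dose SXC were Stmn2, by 1.96 (SE 0.68, limma adjusted p 0.0242), and Gap43, by 1.70 (SE 0.67, limma adjusted p 0.0458). Of 8 Schwann cell markers 2 rose with low-dose SXC, with a median of -0.06. With saline as 3 averages 0 neuron markers and 1 Schwann cell marker rose, and the limma adjusted p of Stmn2 and Gap43 was 0.0816 and 0.232. The summed level of the neuron markers was 1.53 to 3.38 with low-dose SXC, 1.45 to 2.34 with high-dose SXC and 1.27 to 1.98 with valsartan, against 0.987 to 2.07 with saline, and its part in the level of Vgf was not tested.

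Between the doses of SXC, the ranges of high-dose and low-dose arrays overlapped for all 8 genes, where 4.14% of all probes had no overlap. The mean was higher at the high dose by 1.76 (SE 0.41) for Isl2 and by 1.92 (SE 0.49) for Tssk3, and by 0.94 (SE 0.81) for Hrg and 0.67 (SE 0.81) for Slc38a4. It was -0.05 (SE 1.02) for Ttr, 0.07 (SE 1.07) for Rup2 and -0.64 (SE 0.64) for Psd2. The low-dose arrays entered the choice of the genes, so these differences carry no test. With high-dose arrays 1 and 2 alone, at the gain of the low-dose arrays, the difference was 1.81 for Isl2 and 2.17 for Tssk3. Hrg and Slc38a4 turned to -0.38 and -0.44 there, Rup2 to -1.01, and Ttr went to -1.12, while Psd2 was -0.62 and Vgf, measured on those arrays, 0.57. Isl2 and Tssk3 were thus the 2 genes higher at the high dose over all arrays and on these 2 by over 1 log2 unit. Low-dose array 6, on the slide of high-dose arrays 1 and 2, read 1.46 for Isl2 and 1.25 for Tssk3. Those high-dose arrays read 0.95 to 1.46 and 0.70 to 1.33, so no dose difference showed on the shared slide. With the slide as a random block the differences were 1.40 and 1.49, and slide and dose were not separated further. Between valsartan and low-dose SXC all 8 genes overlapped too, where 15% of all probes did not.

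Valsartan against high-dose SXC is the 1 comparison whose 2 groups did not enter the choice of the genes, and none of the 8 passed its test. Its limma SE, p-values and intervals still rest on a spread shared over all 26 arrays, low-dose and saline ones included. For Isl2 and Tssk3 the low-dose SD of 1.23 and 1.48 exceeded that of either group compared, and for Psd2 the saline SD of 2.02 did. The exact permutation used only the arrays of the 2 groups. In the fit over all probes, 281 of 23744 probes (1.18%) had an adjusted p under 0.05 with limma, and 0 of the 8 members. Leaving out any 1 array changed the 281 to between 85 and 800, by over 1.5 times for each array but valsartan array 3, and left the 0 as it was. At an unadjusted limma p under 0.05 there was 1 member, Isl2. Isl2 averaged -0.06 ± 0.66 with valsartan and 1.15 ± 0.26 with high-dose SXC (SD, n = 6 each), a difference of -1.21 (SE 0.41, limma p 0.0065, adjusted p 0.13, 95% interval -2.06 to -0.37). Every valsartan array, up to 0.55, lay below every high-dose array, from 0.85. Among all probes 0.804% lay lower without overlap.

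The exact permutation test over the 12 arrays, 2-sided, gave Isl2 an unadjusted p of 0.0022, the smallest that its 924 splits allow. No slide held arrays of both groups, so slide and treatment cannot be told apart in this comparison. The permutation treats the arrays as exchangeable and takes no account of slides. The adjusted p of Isl2 lay between 0.064 and 0.572 over 25 other settings, with a difference between -1.34 and -1.01. For Tssk3, with means of -0.21 ± 0.51 and 0.77 ± 0.32 (SD, n = 6 each), the difference was -0.97 (SE 0.49, limma p 0.0573, adjusted p 0.313, 95% interval -1.97 to 0.03) and the exact permutation p was 0.00649. Its adjusted p lay between 0.165 and 0.719 over the 25 settings. On the arrays at the lower gain alone the differences were -1.19 for Isl2 and -0.85 for Tssk3.

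For the other 6 genes the intervals were wide and included 0. The difference was -0.31 for Ttr (95% interval -2.40 to 1.78), -0.25 for Rup2 (-2.44 to 1.94), -0.09 for Hrg (-1.75 to 1.57) and -0.97 for Slc38a4 (-2.64 to 0.71). It was -0.04 for Psd2 (-1.37 to 1.28) and -0.23 for Vgf (-1.19 to 0.73), the last between groups that hardly rose above background. Their adjusted p-values with limma were 0.906, 0.929, 0.968, 0.575, 0.982 and 0.842, and their exact permutation p-values 0.82, 0.87, 0.905, 0.307, 0.885 and 0.742. Differences of several fold in either direction between valsartan and high-dose SXC thus lie inside the intervals of Ttr, Rup2 and Hrg. Of the liver plasma protein genes 0 of 28 passed the adjusted threshold in this comparison. In the thyroid hormone and retinol list 0 of 17 rose and 3 fell, where 0.85% of all genes fell. Thra, a nuclear receptor of thyroid hormone, was named after its value was seen, as the 1 of the 3 measured in both groups. It was well above background on 5 of 6 valsartan and 6 of 6 high-dose arrays, and averaged -1.98 with valsartan and -1.11 with high-dose SXC (difference -0.86, SE 0.16, adjusted p from limma 0.00882). The others, Dio2, which activates thyroid hormone, and Slc16a10, a carrier of aromatic amino acids and thyroid hormone, were well above background on 5 of 6 high-dose and 0 of 6 valsartan arrays, which were scanned at the lower gain, so the size of their fall was not measured.

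**Figure D4:**
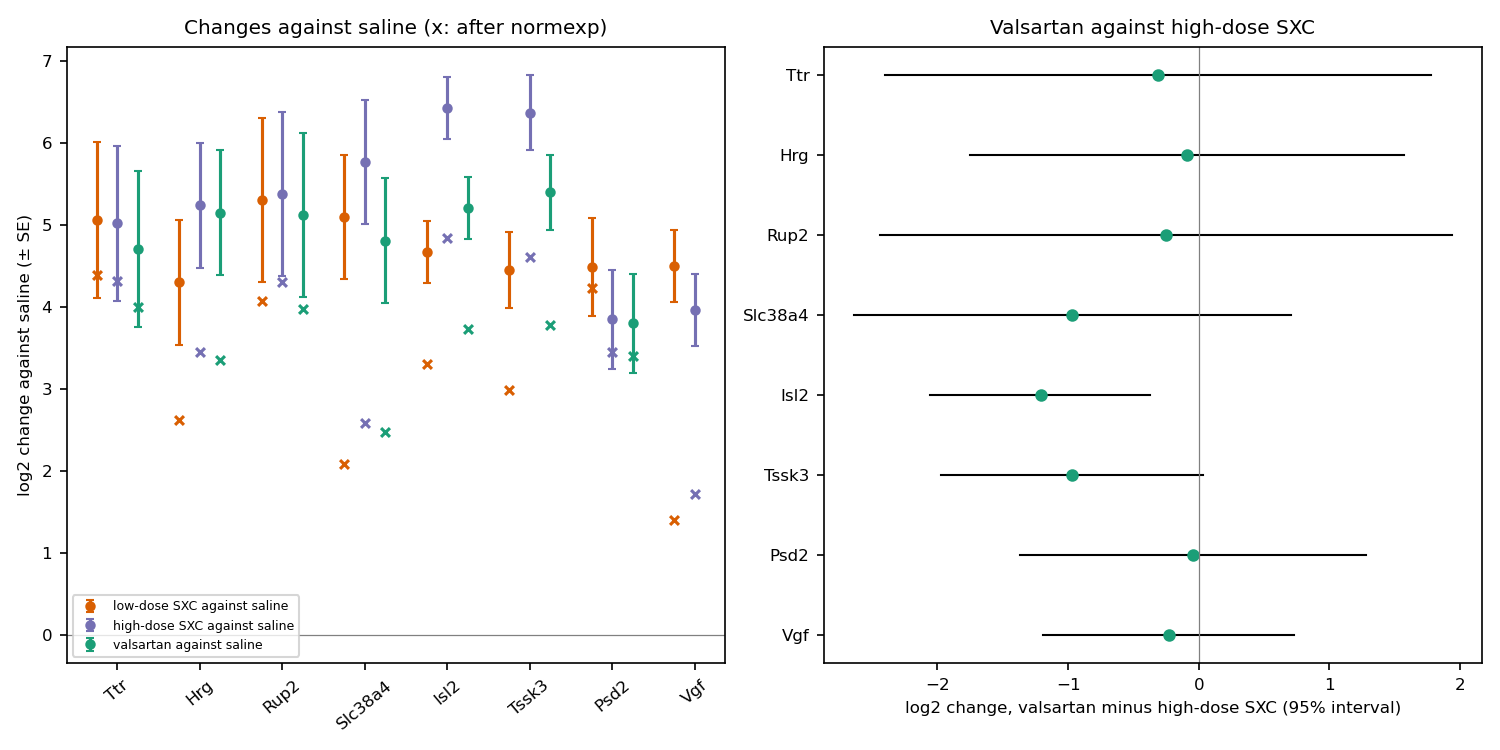
Left, log2 change of each gene against saline (y axis) with low-dose SXC, high-dose SXC and valsartan, as the fitted value with its SE, and as a cross after the normexp background correction. Vgf with valsartan is left out, being undetected in both groups. Right, log2 difference between valsartan and high-dose SXC (x axis) with its 95% interval, where Isl2 (-2.06 to -0.37) is the gene whose interval lies wholly below 0.

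The size of the changes against saline depended on how faint signal was treated. After normexp background correction with an offset of 50, which lifts faint signal by its construction, the low-dose change was 4.39 for Ttr, 2.62 for Hrg, 4.07 for Rup2, 2.08 for Slc38a4, 3.31 for Isl2, 2.99 for Tssk3, 4.23 for Psd2 and 1.40 for Vgf. In the authors' deposited table the same changes ranged from 2.83 for Vgf to 5.20 for Rup2. With the saline arrays as 3 averages they ranged from 4.11 for Hrg to 5.07 for Slc38a4. Under each of these settings all fitted changes against saline were above 0, and that of Vgf with valsartan is not a measured direction.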

How the data were processed

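RNA from rat thoracic aorta was hybridised to 26 single-colour Agilent arrays, with group and replicate number from the sample titles. Each aorta was extracted separately (TRIzol), per the labels' protocols. Per the file headers, the authors quantified the scans with Agilent Feature Extraction 11.0.1.1, and the processed intensity values are background-subtracted within each array and not normalised between arrays. The files also hold median spot and background intensity and flags (0 or 1) as deposited. The authors' deposited table holds log2 values with column medians of 5.75 to 5.76, not centred per gene, each correlating with its own array at r of at least 0.961. How it was normalised is not stated in the sources used here. It was used as an alternative.

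Spots of 1 probe were averaged after controls and outliers were dropped. A level is the log2 processed signal less the array's own 75th percentile, taken over spots outside controls. A share of 0.5 or more of a probe's spots had to clear background for the probe to count as well above it, and the 23744 of 30367 probes that did so on 6 arrays or more were tested. RefSeq accessions matched 18005 probes to 1 GRCr8 symbol (15168 symbols) and 12362 to none. Lists used each gene's brightest probe. The precision is limited by 6 to 8 arrays a group, and 28.7% to 79.3% of probes cleared background per array.

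One limma fit (R 4.3.3, limma 3.58.1, trend) over the 4 groups gave changes, SE and Benjamini-Hochberg adjusted p-values over all probes tested, with a threshold of 0.05. It was tested on simulated data. Exact permutation tests covered single values. Figures used matplotlib. The members and gene lists were chosen with earlier results of these data known. Genes named beside the members are, per member, the 3 with the closest centred levels, per list the 2 with the largest called change in each of low-dose SXC against saline and valsartan against high-dose SXC, and the 3 next in the ranking. Alternatives were normexp, which used median in place of mean spot intensity because the files hold no mean, quantile normalisation, the deposited table, other filters, slide, gain and replicate blocks, and leaving out each array. Equal replicate numbers did not pair arrays: correlations of their deviations ran from -0.37 to 0.28. p-values measure the spread between arrays. The full group of 8 valsartan rats named in the series text is not analysed here beyond 6 arrays.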

Additional observations from a re-analysis of the deposited data

Results flagged for a closer look

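Saline array 8 stood apart from the other 7 saline arrays for 3 genes. Ttr read -6.90 there, with the next lowest saline array at -2.94. Hrg read -8.09, with the next at -6.36, and Rup2 -7.81, with the next at -4.36. The gap from array 8 to its neighbour was 0.85, 0.59 and 0.74 of the group's range for Ttr, Hrg and Rup2. The 95% limit of Dixon's test for 8 values served only as a screen for such gaps. These saline values entered the choice of the genes, so the gaps are a description with no test. On that array none of the 3 probes was well above background, and the liver plasma protein list also had its lowest saline mean, -4.84. The screen covered 32 gene and group combinations and flagged these 3. All lie on array 8, and Ttr and Rup2 ran almost in step, so no chance rate is set beside the count.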

How the results depend on the processing

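No change of a member against saline turned its direction under any setting tried, leaving aside Vgf with valsartan, where neither group was detected, and 0 of the 8 members passed the adjusted threshold for valsartan against high-dose SXC in any. The count of probes called in that comparison, 281, was less stable. It was 18 after normexp, 725 after quantile normalisation, 450 in the authors' deposited table and 154 with no filter on dim probes. It was 4 with slide as a random block (consensus correlation 0.22), 95 with the replicate number as a block, 6 with only the 2 groups in the fit, 1322 with detector gain as a block, 6 with only arrays at the lower gain and 6 with only the shared scan day, the last chosen after seeing the data. Leaving out 1 array in turn gave 85 to 800, the extremes without valsartan array 6 and without valsartan array 1. Fewer arrays enter the fits with 2 groups, 1 gain or 1 day, and for the others the cause was not tested. For low-dose SXC against saline 9401 probes were called, 8367 to 9246 with 1 array left out, 13025 with only the 2 groups in the fit, and 5640 with saline as 3 averages, chosen after seeing the data, which leaves fewer arrays.

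The replicate block changed no member's call. Slc38a4 and Vgf, near background, moved with the scaling: with valsartan against saline Slc38a4 was 4.81, 2.85 after quantile normalisation and 2.69 in the deposited table. Signal over background limits Vgf with high-dose SXC and valsartan, and both genes with saline.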
